A study of Mus musculus with 29 samples.

Results

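Hepatic Ly6C-hi macrophages of RNase T2-deficient mice were compared with the resident Kupffer cells (KCs) of wild-type mice, gene by gene. Members were the 3 libraries of Rnaset2-/- liver Ly6C-hi macrophages and the 4 libraries of wild-type liver KCs, 7 of the 29 libraries in the series. The test covered 11816 of the 23930 genes in the expression table, those that lie on an autosome and reached 1 RPM (the reads of a gene scaled to a common library total) in at least 3 of the 7 libraries. The Rnaset2-/- mice carry deletions of Rnaset2a and of Rnaset2b, the pair of mouse genes for this enzyme. According to the labels, Ly6C-hi macrophages were CD11b+ cells with high Ly6C that lacked Ly6G, SiglecF and NK1.1, whereas KCs were Tim4+ F4/80+ cells with intermediate CD11b and low PDCA-1. The study's methods give other gates for liver. They add F4/80 and CD16.2, the product of Fcgr4, and for Ly6C-hi macrophages of Rnaset2-/- mice they repeat the gate of the Ly6C-low cells, with high CD16.2. Which gate was used is not settled here, and the labels were followed. Both populations were sorted from liver, and no treatment or age is given in the labels for either. The 3 libraries of wild-type liver Ly6C-hi macrophages are given beside the compared groups as a reference level. Genotype, cell type and, by their transcripts, sex differed together between the compared groups, so a difference between them cannot be told apart into these components.

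KCs are the macrophages of the liver sinusoids. They are seeded before birth, take up bacteria, aged blood cells and lipoproteins from portal blood, and recycle heme iron. Their identity depends on signals from endothelial, stellate and parenchymal cells and on the liver X receptor LXRα. Ly6C-hi cells are freshly recruited monocytes that enter tissue through the chemokine receptor CCR2, and they can lose Ly6C and mature into macrophages, including KCs, when the resident niche is empty. RNase T2 is an endosomal and lysosomal nuclease that degrades RNA, which is otherwise a ligand of endosomal Toll-like receptors.

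Expression was measured with an amplicon panel, in which each gene is read through a short product. The reads behind the values numbered 12947665 to 13027220 in the Ly6C-hi libraries and 11451876 to 12207718 in the KC libraries, so that a count of 3 reads corresponded to 0.23 to 0.262 RPM. Differences are given as log2 of RPM, divided by the scaling factor of each library and increased by 1, Ly6C-hi minus KC, with the standard error (SE). This scale understates the change of genes with low values. A gene was called higher or lower when it differed by more than 1.5-fold with an adjusted p-value below 0.05 in limma. Values of single libraries are RPM as deposited, in the order of the replicate numbers. Overlap between groups was read from these values, before scaling. The scaling factors were 0.7548 to 0.9418 in the Ly6C-hi libraries and 1.081 to 1.172 in the KC libraries. Overlap can therefore differ after scaling. Nothing in the labels says whether replicates came from separate mice, so the p-values measure the spread between these libraries.

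The label check was made on the genes of the sorting gates, which are therefore no finding. Itgam, encoding CD11b, measured 841, 1219 and 1343 RPM in the Ly6C-hi libraries against 93.4, 131, 124 and 119 RPM in the KC libraries. Timd4, encoding Tim4, measured 7.29, 2.01 and 0.923 RPM against 415, 448, 166 and 431 RPM. Adgre1, encoding F4/80, stood at 145, 138 and 115 RPM in Ly6C-hi macrophages against 588, 429, 201 and 467 RPM. These 3 genes followed the gates, without overlap as deposited. After scaling, Adgre1 overlapped, as Ly6C-hi replicate 1 exceeded KC replicate 3. Fcgr4, encoding CD16.2, measured 445, 1021 and 639.8 RPM in the Ly6C-hi libraries, 282, 285, 173 and 329 RPM in the KC libraries and 88.3, 77.2 and 74.6 RPM in wild-type Ly6C-hi macrophages. Rnaset2-/- liver Ly6C-low macrophages, whose gate the methods repeat, held 2577, 4451 and 3118 RPM of Fcgr4. Their Ccr2 stood at 43.3, 8.56 and 6.28 RPM, against 462, 402 and 336 RPM in the Ly6C-hi libraries. Gate genes stay in the gene lists, and the counts without them are given for each list that holds one. Bst2, encoding PDCA-1, for which KCs were gated low, measured 217, 218 and 234 RPM in Ly6C-hi macrophages and 387, 451, 418 and 533 RPM in KCs, so that it was higher in KCs (log2 difference -0.6 ± 0.18, adjusted p = 0.0330). It was not called without KC replicate 2 or 4 or Ly6C-hi replicate 2 or 3 (log2 difference -0.59 to -0.49) or with the replicate number as a block (log2 difference -0.49). Of the genes excluded by the Ly6C-hi gate, Ly6g did not pass the filter on low values, Siglecf reached at most 2.46 RPM in Ly6C-hi libraries, and Klrb1c, encoding NK1.1, reached 5.22, 58.6 and 89.6 RPM in Ly6C-hi macrophages and 27.4, 14.8, 42.4 and 25.8 RPM in KCs. Xist ran at 0 to 0.154 RPM in the Ly6C-hi libraries and 647 to 949 RPM in the KC libraries, and the summed Y-linked genes at 150.1 to 251 RPM and 0 RPM. The wild-type Ly6C-hi libraries held 321 to 539 RPM of Xist, and their replicates 2 and 3 also held 29 and 42.1 RPM of Y-linked genes. Sex by transcripts therefore differed between the compared groups, and X- and Y-linked genes were left out of the test. Rnaset2a, Rnaset2b and the Ly6c genes were not analysed here, so the genotype was not checked by the targeted genes.

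Markers of other cell types differed between the groups, and 1 library in each group stood apart. The 11 hepatocyte markers, such as albumin (Alb), summed to 26.1 to 76.4 RPM in the Ly6C-hi libraries and 1640 to 5563 RPM in the KC libraries, and all 11 were called lower. Sinusoidal endothelial markers summed to 569.7 to 3515 RPM against 3623 to 8915 RPM, stellate cell markers to 107 to 178 RPM against 319.7 to 622 RPM, and conventional dendritic cell markers to 208 to 252 RPM against 365 to 643 RPM, each without overlap as deposited. After scaling, the endothelial sum of Ly6C-hi replicate 3 exceeded those of KC replicates 1 and 4. Called lower were 3 of 13 endothelial, 5 of 10 stellate and 2 of 8 conventional dendritic cell markers, and 1 endothelial marker was higher. Without KC replicate 3, none of the endothelial markers and 1 of the conventional dendritic cell markers was lower. Without Ly6C-hi replicate 1, it was 1 of each. Plasmacytoid dendritic cell markers, led by the gate gene Bst2, summed to 277 to 349 RPM against 629 to 788 RPM. Markers of neutrophils and their precursors ran the other way, at 295 to 1849 RPM against 64.8 to 278 RPM. Markers of eosinophils, basophils and mast cells, led by Prg2 in Ly6C-hi macrophages, summed to 92.3 to 235 RPM against 12.3 to 31.4 RPM. Of 8 tested, 3 were higher, Ccr3 was lower and 4 were not called. T cell markers at 225 to 506 RPM against 247 to 387 RPM, NK cell markers at 404 to 834 RPM against 331 to 939 RPM, and erythroid markers at 95.6 to 320.4 RPM against 74.2 to 280.0 RPM overlapped between the groups. B cell markers summed to 185 to 1115 RPM against 713 to 1318 RPM, and platelet markers to 57.6 to 78.9 RPM against 399 to 675 RPM. In KCs the platelet sum was mostly Clec1b, which is also in the KC identity list. In the wild-type Ly6C-hi libraries the same T cell markers reached 17.8 to 39.1 RPM. KC replicate 3 was the lowest of the KC libraries for 20 of the 21 tested KC identity genes and the highest for 13 of 13 endothelial and 10 of 11 hepatocyte markers. Ly6C-hi replicate 1 was the lowest of its group for 13 of 13 patrolling monocyte genes and 11 of 11 neutrophil markers. Across all tested genes, its log2 values correlated with those of the other Ly6C-hi libraries at 0.942 and 0.93, whereas replicates 2 and 3 correlated at 0.981. The part of these other cells and libraries in the results was not tested. Values without KC replicate 3 or Ly6C-hi replicate 1 are given where they end a call. They are also given where they move a count or a printed median of a gene list by over 1.5 times. In bulk RNA from sorted cells, fewer cells of a type and less RNA per cell cannot be told apart.

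**Figure D1:**
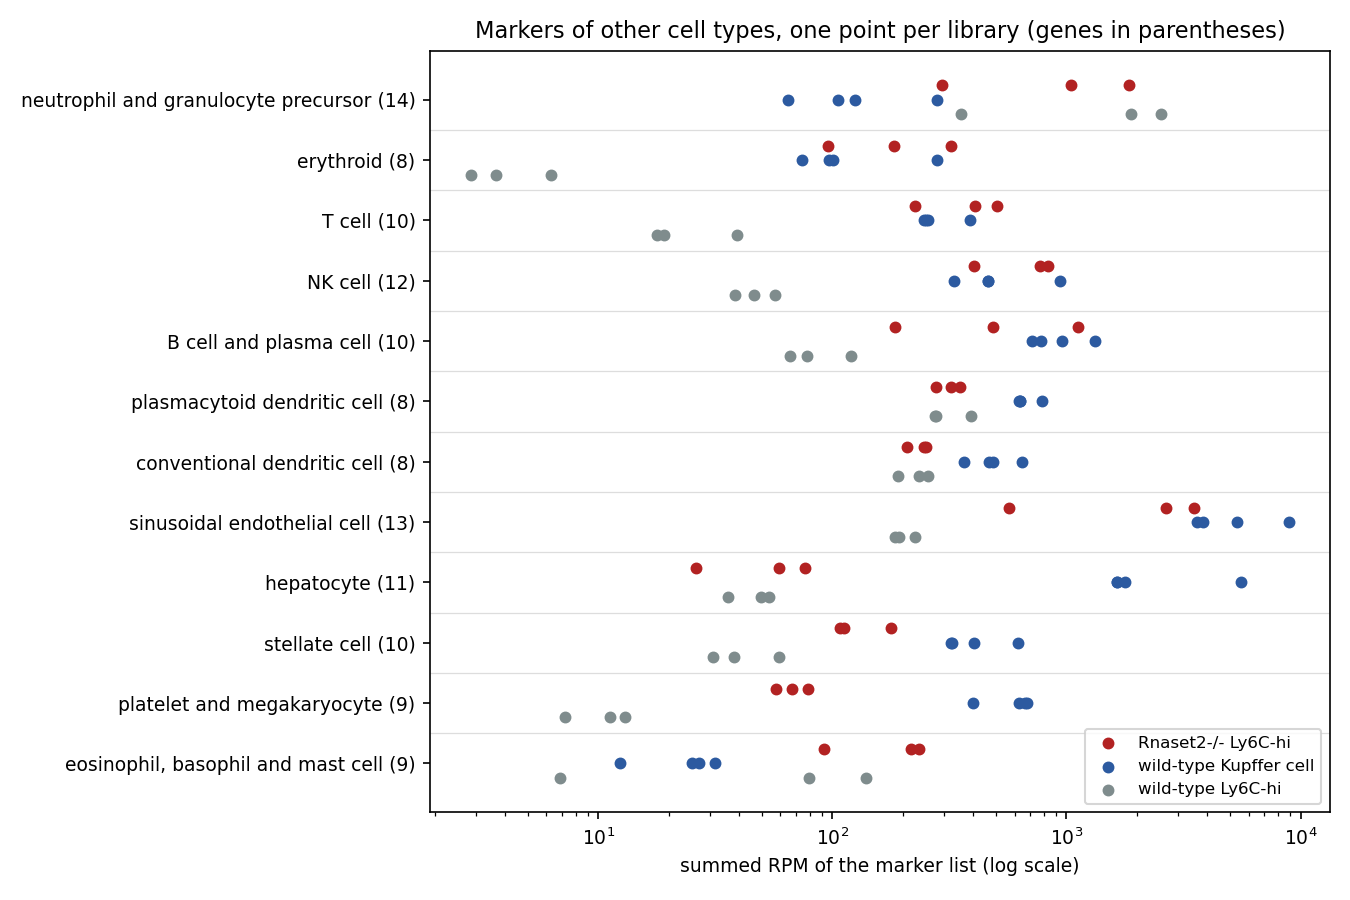
Summed RPM of marker lists of other cell types (log scale), 1 point per library, for Rnaset2-/- Ly6C-hi macrophages (red), wild-type KCs (blue) and wild-type Ly6C-hi macrophages (grey). Hepatocyte markers reached 26.1 to 76.4 RPM in the red libraries and 1640 to 5563 RPM in the blue libraries, while T cell and NK cell markers overlapped.

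In total, 3808 of the 11816 genes differed, 1765 higher and 2043 lower in Rnaset2-/- Ly6C-hi macrophages. These are 14.9% and 17.3% of the tested genes, the background against which each gene list is read. Most tested genes, 8008, were not called, so a list that was mostly not called is no finding in itself. More than 4-fold differences were seen in 276 higher and 588 lower genes, and 5188 genes (43.9%) did not overlap between the 7 libraries. Higher genes made up 46.4% of the calls on scaled values, but 20.7% (868 higher, 3323 lower) on RPM as deposited and 35.7% in a joint fit of all 29 libraries, where the median over all genes moved from -0.03 to -0.4 and -0.15. Without Ly6C-hi replicate 1 the counts were 1918 and 1907, without KC replicate 3 they were 1523 and 1776, and without Ly6C-hi replicate 2 they were 1199 and 1271. The same 3 Rnaset2-/- libraries against the 3 wild-type Ly6C-hi libraries gave 1670 higher genes (15.8%) and 1562 lower genes (14.8%) of 10544 tested. Those counts ran from 852 to 2159 higher and from 922 to 1954 lower when 1 library was left out. They fell to 852 and 935 without wild-type replicate 1, 920 and 922 without wild-type replicate 3, 966 and 1036 without Rnaset2-/- replicate 2, and 1078 and 1105 without Rnaset2-/- replicate 3.

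**Figure D2:**
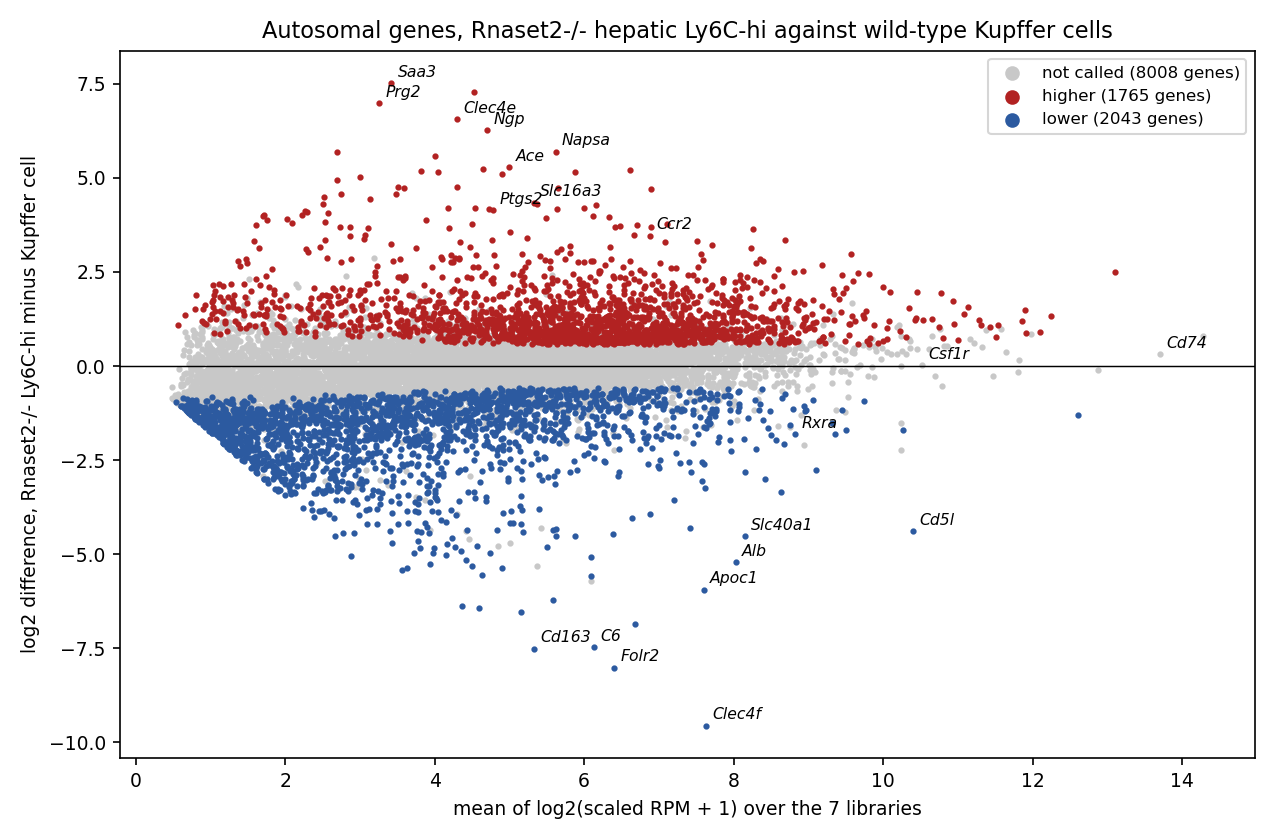
Log2 difference (Rnaset2-/- Ly6C-hi minus wild-type KC, vertical axis) against the mean log2(scaled RPM + 1) over the 7 libraries (horizontal axis) for 11816 autosomal genes. Red points are the 1765 genes called higher and blue points the 2043 called lower, with Clec4f at -9.56 and Saa3 at 7.53 at the ends.

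Most genes that define KCs were far lower in Rnaset2-/- Ly6C-hi macrophages. Of 21 tested KC identity genes, 17 were lower, none was higher and 4 were not called, with a median log2 difference of -4.35 against -0.03 over all genes. Without the gate genes Timd4 and Adgre1, 15 of 19 were lower. Clec4f (GRCm38 chromosome 6, 83644542 to 83656187), a galactose-binding lectin confined to KCs among macrophages, measured 3.53, 1.78 and 4.08 RPM in Ly6C-hi macrophages and 4823, 4819, 1674 and 5470 RPM in KCs. It had the largest decrease of all named genes (log2 difference -9.56 ± 0.43, adjusted p = 6.93e-06). Folr2, a folate receptor, measured 3.07, 1.39 and 2.23 RPM against 1173, 1475, 536 and 1195 RPM (log2 difference -8.01 ± 0.37, adjusted p = 7.33e-06). Cd163, the scavenger receptor for haptoglobin-bound hemoglobin, stood at 0.461, 0.618 and 2.0 RPM against 432, 658, 198 and 544 RPM (log2 difference -7.51 ± 0.43, adjusted p = 1.57e-05). Neither gene overlapped between the groups, and no Ly6C-hi library exceeded 3.07 RPM. Marco, a scavenger receptor for bacteria, fell by 4.51 on the log2 scale, with 41.8, 4.09 and 1.85 RPM in the Ly6C-hi libraries and 295, 369.5, 124 and 290.5 RPM in KCs. The genes not called were the nuclear receptor gene Nr1h3, Adrb1, the heme-responsive factor Spic and the heme oxygenase gene Hmox1. Hmox1 had 884, 444 and 384 RPM in Ly6C-hi macrophages and 1120, 906, 509 and 1526 RPM in KCs, which overlapped (log2 difference -0.43 ± 0.45, adjusted p = 0.496). Spic was called lower without Ly6C-hi replicate 1 (log2 difference -0.85). The count of lower genes was 15 to 19 across the analyses that left out 1 library.

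Several KC genes lay between the wild-type Ly6C-hi level and the KC level. Cd5l (GRCm38 chromosome 3, 87357881 to 87371073), an LXR target that encodes a secreted inhibitor of macrophage apoptosis, measured 348, 152 and 159 RPM in Rnaset2-/- Ly6C-hi macrophages. It reached 7317, 8187, 2098 and 7779 RPM in KCs (log2 difference -4.38 ± 0.55, adjusted p = 0.000661), and 1.62, 1.0 and 0.895 RPM in wild-type Ly6C-hi macrophages. Against the latter, the Rnaset2-/- libraries were higher (log2 difference 6.33 ± 0.39, adjusted p = 0.000154), and none of the 10 libraries overlapped between groups. The same order held for Slc40a1, the iron exporter ferroportin, with 49.1, 36.5 and 34.8 RPM, 1677, 1470, 483 and 1886 RPM in KCs and 1.54, 5.01 and 2.59 RPM in wild-type Ly6C-hi macrophages. Its difference from KCs was -4.52 ± 0.46 (adjusted p = 0.000249) and the Rnaset2-/- libraries were higher than wild-type Ly6C-hi macrophages (log2 difference 3.15 ± 0.35, adjusted p = 0.000990). Clec1b, a C-type lectin of KCs and platelets, was at 19, 35.1 and 39.8 RPM, against 562, 539, 297 and 557 RPM in KCs and 5.33, 4.92 and 5.55 RPM in wild-type Ly6C-hi macrophages. Clec4f itself was higher than in the wild-type Ly6C-hi libraries (0.154, 0.167 and 0 RPM, log2 difference 1.73 ± 0.31, adjusted p = 0.00607), although its highest Ly6C-hi library held 4.08 RPM. Endothelial and lymphocyte markers were also higher in the Rnaset2-/- than in the wild-type Ly6C-hi libraries, with 12 of 13 endothelial, 9 of 10 T cell and 9 of 10 B cell markers called, and their part in these levels was not tested. Cd163 did not follow this order, as it was 2.47, 2.5 and 1.97 RPM in wild-type Ly6C-hi macrophages and lower in the Rnaset2-/- libraries (log2 difference -0.98 ± 0.31, adjusted p = 0.0446). Over the KC identity list, 6 of 17 tested genes were higher and 2 lower in Rnaset2-/- than in wild-type Ly6C-hi macrophages. In Rnaset2-/- liver Ly6C-low macrophages, Cd5l measured 9639, 6753 and 5478 RPM and Slc40a1 678, 175 and 146 RPM. Clec4f measured 63.3, 17.7 and 53.1 RPM there. All 3 genes were thus higher in Ly6C-low than in Ly6C-hi libraries of this genotype, whereas Cd163, at 3.54, 0.156 and 1.3 RPM, overlapped.

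**Figure D3:**
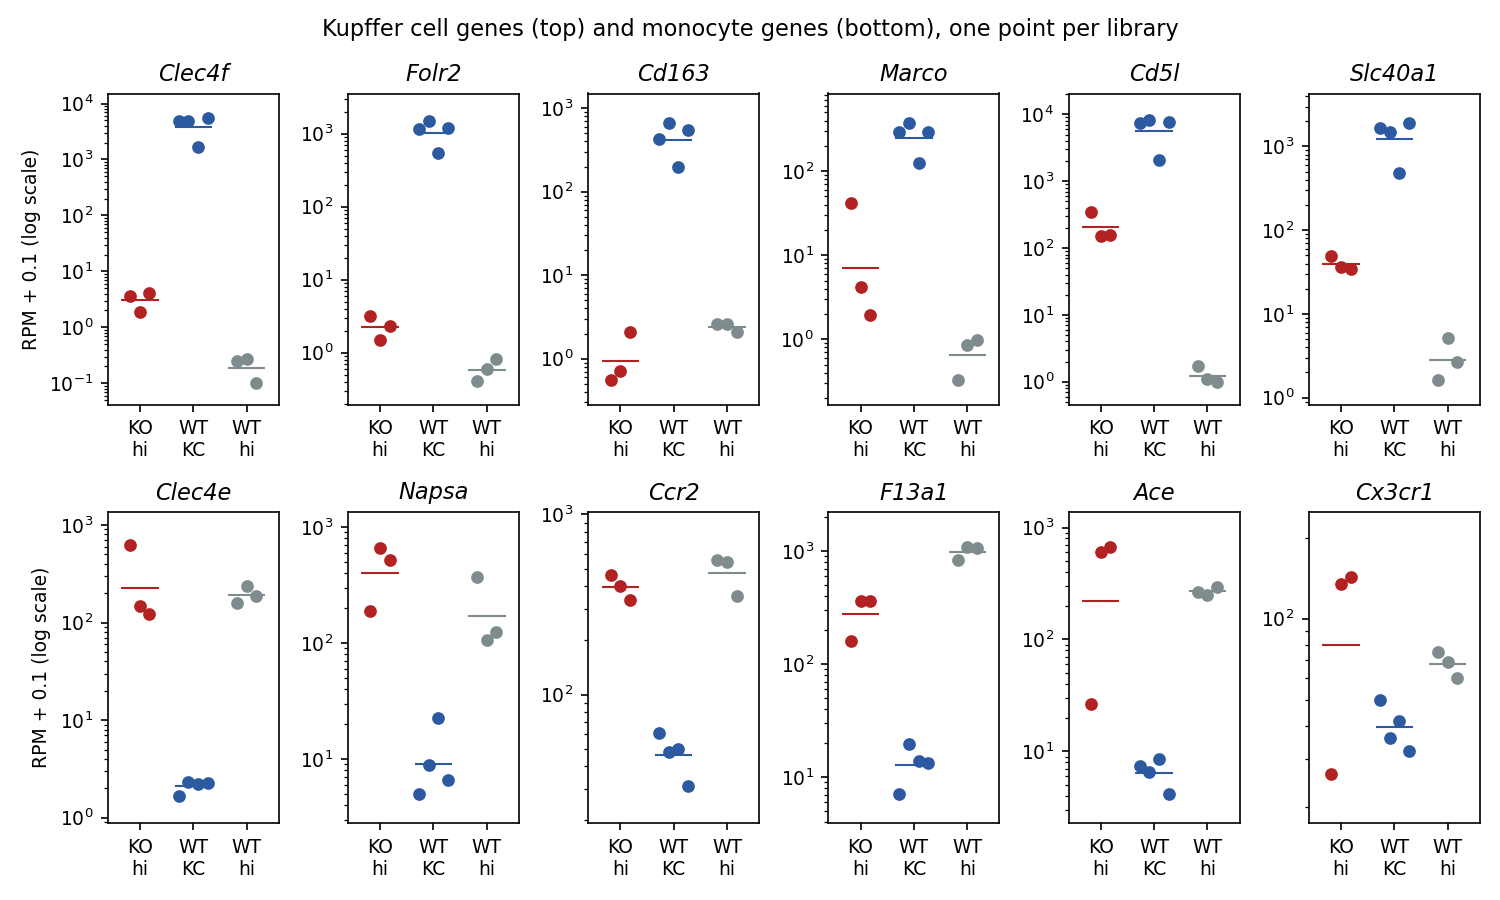
RPM + 0.1 (log scale) of 6 KC genes (top) and 6 monocyte genes (bottom) in single libraries of Rnaset2-/- Ly6C-hi macrophages (KO hi), wild-type KCs (WT KC) and wild-type Ly6C-hi macrophages (WT hi), with bars at geometric means. Cd5l and Slc40a1 sit between the other groups in the Rnaset2-/- libraries, and Ccr2 sits well above KCs in both Ly6C-hi groups.

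Monocyte genes showed the opposite pattern. Of 23 classical monocyte genes, 22 were higher in Ly6C-hi macrophages and none was lower, with a median log2 difference of 2.87, and only S100a10 was not called (log2 difference 0.1 ± 0.26, adjusted p = 0.785). Ccr2 (GRCm38 chromosome 9, 124101950 to 124113557), the receptor through which monocytes leave bone marrow, measured 462, 402 and 336 RPM against 61.2, 47.8, 49.7 and 31.1 RPM in KCs (log2 difference 3.47 ± 0.26, adjusted p = 5.29e-05). Clec4e, a receptor for mycobacterial and damage-derived glycolipids, measured 631, 148 and 123 RPM against 1.56, 2.25, 2.1 and 2.18 RPM (log2 difference 6.57 ± 0.55, adjusted p = 0.000102). Napsa, an aspartic protease gene of monocytes, reached 188, 661 and 518 RPM against 4.92, 8.73, 22.4 and 6.54 RPM (log2 difference 5.7 ± 0.49, adjusted p = 0.000110). All 3 genes were separated by several-fold in every pair of libraries. Lyz2, the macrophage lysozyme, was higher by 2.51 and F13a1, a coagulation factor subunit, by 4.73 on the log2 scale. Ccr2 in wild-type Ly6C-hi macrophages was 558, 548 and 352 RPM, and the genotypes did not differ detectably in this gene (log2 difference -0.58 ± 0.26, adjusted p = 0.122). The count of higher classical genes was 20 to 22 in every analysis that left out 1 library, and 21 of 22 without the gate gene Itgam.

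Genes of patrolling, Ly6C-low monocytes were higher too, 12 of 13 tested, with a median of 1.74, and 11 of 12 without the gate gene Fcgr4. Ace, the angiotensin-converting enzyme, measured 26.2, 609 and 667 RPM against 7.29, 6.41, 8.38 and 4.03 RPM in KCs (log2 difference 5.29 ± 0.91, adjusted p = 0.00288). Spn, which encodes the sialophorin CD43, measured 25.6, 98.2 and 77.8 RPM against 6.63, 3.41, 5.85 and 2.01 RPM (log2 difference 3.88 ± 0.45, adjusted p = 0.000444). Pglyrp1, a peptidoglycan-binding protein, measured 20.1, 289.7 and 232 RPM against 11.5, 12.4, 14.9 and 7.97 RPM (log2 difference 3.56 ± 0.73, adjusted p = 0.00663). Replicate 1 was the lowest Ly6C-hi library for each of these. Cx3cr1, the fractalkine receptor of patrolling cells, measured 26.4, 134 and 143 RPM against 49.8, 36, 41.6 and 32 RPM (log2 difference 1.39 ± 0.47, adjusted p = 0.0472). As deposited, Ly6C-hi replicate 1 lay below every KC library, but after scaling it exceeded KC replicates 2 and 4. Cx3cr1 was not called without KC replicate 1, 2, 3 or 4 or Ly6C-hi replicate 2 or 3 (log2 difference 1.05 to 1.5) or with the replicate number as a block (log2 difference 1.31). Treml4 was not called (log2 difference 1.27 ± 0.43, adjusted p = 0.0507) but was higher without Ly6C-hi replicate 1 (1.8) and with the block (log2 difference 1.42). The count of 12 fell to 7 without KC replicate 1, to 8 without KC replicate 2 or 3, to 9 without KC replicate 4 and to 6 without Ly6C-hi replicate 2 or replicate 3, and it was 13 without Ly6C-hi replicate 1. It was 7 on RPM as deposited and with no filter on low values.

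The 10 largest increases included Saa3, Ly6i, Lyz1, Prg2, Ngp, Ip6k3 and Gm9733. Saa3 (GRCm38 chromosome 7, 46711998 to 46715700), a serum amyloid A protein made by macrophages, measured 2146, 71.4 and 36.8 RPM in Ly6C-hi macrophages and 0 to 0.333 RPM in KCs, at most 4 reads in a KC library (log2 difference 7.53 ± 1.2, adjusted p = 0.00193). Ly6i, a member of the Ly6 family, measured 1400, 191 and 162 RPM against 0.737, 4.33, 2.97 and 0.755 RPM (log2 difference 7.29 ± 0.77, adjusted p = 0.000295). Lyz1, the lysozyme paralog, measured 1724, 58.8 and 47.8 RPM against 4.83, 2.75, 7.33 and 5.2 RPM (log2 difference 5.25 ± 1.12, adjusted p = 0.00782). Replicate 1 was far above replicates 2 and 3 for these 3 genes. Close paralogs such as these can share amplicon reads, and their split is uncertain. Prg2, the eosinophil major basic protein, measured 79.5, 167 and 162 RPM against 0.573, 0, 0.437 and 0 RPM (log2 difference 6.99 ± 0.3, adjusted p = 6.93e-06). Ngp, a granule protein of neutrophil precursors, measured 83.1, 703 and 320.4 RPM against 10.2, 0, 1.57 and 10.9 RPM (log2 difference 6.28 ± 0.91, adjusted p = 0.00125). Both granulocyte genes were lowest in replicate 1, in which the neutrophil markers summed to 295 RPM against 1849 and 1050 RPM in the others. Ip6k3, an inositol hexakisphosphate kinase gene, and Gm9733 rose by 5.68 and 5.58 on the log2 scale.

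The 10 largest decreases also included C6, Fcna, Fabp7, Apoc1, Chp2 and Ccl24. C6, a terminal complement component, measured 5.68, 0.85 and 1.77 RPM in Ly6C-hi macrophages and 1002, 824, 325 and 1050 RPM in KCs (log2 difference -7.48 ± 0.55, adjusted p = 5.38e-05). Fcna, a lectin-pathway ficolin, measured 8.29, 2.32 and 5.85 RPM against 1177, 1323, 379 and 1007 RPM (log2 difference -6.84 ± 0.51, adjusted p = 5.35e-05). Fabp7, a fatty acid-binding protein, measured 0.614, 0.695 and 1.0 RPM against 183, 272, 119 and 189.6 RPM (log2 difference -6.44 ± 0.29, adjusted p = 6.93e-06). For these 3 genes the lowest KC library held 119 RPM and the highest Ly6C-hi library 8.29 RPM. Apoc1, an apolipoprotein, was lower by a narrow error (log2 difference -5.95 ± 0.2, adjusted p = 2.7e-06), at 13.7, 15.4 and 15.5 RPM against 1586, 1459, 990.2 and 1145 RPM. Chp2, a calcineurin-like EF-hand protein, fell by 6.39 on the log2 scale. Ccl24, an eosinophil chemoattractant, measured 2.46, 0.618 and 1.54 RPM against 302, 475, 137 and 298 RPM (log2 difference -6.53 ± 0.44, adjusted p = 4.05e-05). Unlike Clec4f, Folr2 and Cd163, it was abundant in wild-type Ly6C-hi macrophages, at 220.3, 224 and 129 RPM (log2 difference -6.5 ± 0.34, adjusted p = 0.000102 between genotypes).

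Transcription factors of the monocyte and macrophage lineages split in both directions. Of 29 tested, 13 were higher, 8 lower and 8 not called, with a median of 0.83. The lower count fell to 5 without KC replicate 1, without KC replicate 4, without Ly6C-hi replicate 2 or with no filter on low values, and the median was 0.46 on RPM as deposited. Id3, a factor required for KC development, measured 74.8, 192 and 229 RPM in Ly6C-hi macrophages and 691, 808, 729 and 828 RPM in KCs (log2 difference -1.96 ± 0.3, adjusted p = 0.00157). Rxra, the nuclear receptor that pairs with LXRα, measured 195, 167 and 207 RPM against 897, 979.7, 663 and 978 RPM (log2 difference -1.8 ± 0.22, adjusted p = 0.000524). Nr1h3, which encodes LXRα, did not reach the threshold (log2 difference -1.05 ± 0.37, adjusted p = 0.0525) at 145, 74.7 and 61.7 RPM against 262, 322, 169 and 234 RPM. The groups did not overlap as deposited, but after scaling Ly6C-hi replicate 1 exceeded KC replicate 3. Nr1h3 was called lower without KC replicate 3 or Ly6C-hi replicate 1 (log2 difference -1.49 to -1.24) and with the replicate number as a block (log2 difference -1.05). Runx2 (30.9, 95.8 and 95.3 against 11.6, 5.99, 12.3 and 6.29 RPM, log2 difference 3.17 ± 0.39, adjusted p = 0.000569), a Runt-domain factor, was higher. Cebpb, a factor required by Ly6C-low monocytes, measured 1191, 1490 and 1667 RPM against 392, 338, 145 and 386 RPM (log2 difference 2.68 ± 0.35, adjusted p = 0.000792). The myeloid master factor Spi1 and the monocyte factor Irf8 were higher by 1.44 and 1.16 on the log2 scale.

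Genes of the Notch, TGF-β and BMP pathways, through which the niche imprints KCs, were mostly not called. Of 19, 3 were higher, 4 lower and 12 not called, with a median of -0.54. Notch2 measured 335, 676 and 616 RPM in Ly6C-hi macrophages and 225, 183, 172 and 205 RPM in KCs (log2 difference 1.8 ± 0.22, adjusted p = 0.000616). Tgfb1, the ligand, was higher (log2 difference 1.33 ± 0.18, adjusted p = 0.000855), as was Smad3, a signal transducer of TGF-β receptors (0.98). Hey1, a Notch target, measured 0.307, 2.08 and 3.54 RPM against 21.4, 21, 7.68 and 25.1 RPM (log2 difference -2.54 ± 0.51, adjusted p = 0.00618), and Bmpr1a, a BMP receptor, fell by 2.42 on the log2 scale. Notch1 and Skil were the other lower genes. Notch1 was not called without Ly6C-hi replicate 2 (log2 difference -0.8), and Skil, a repressor of SMAD proteins, was not called without KC replicate 4 or Ly6C-hi replicate 1 or 2 (log2 difference -0.64 to -0.57) or with the replicate number as a block (log2 difference -0.58). The count of lower genes was 2 without Ly6C-hi replicate 2, 7 on RPM as deposited (median -0.93) and 9 in the joint fit of all 29 libraries.

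Calls among LXR targets were mostly lower and those among sterol genes higher. Of 18 LXR targets, 7 were lower, 2 were higher and 9 were not called, with a median of -0.86. The median was -0.52 without Ly6C-hi replicate 1, and on RPM as deposited 11 were lower and none was higher. Apoe, the apolipoprotein for cholesterol export, measured 112, 56.7 and 77 RPM in Ly6C-hi macrophages and 836, 728, 623 and 758 RPM in KCs (log2 difference -2.8 ± 0.28, adjusted p = 0.000208). Scd1, a fatty acid desaturase, fell by 2.32 on the log2 scale. The higher genes were Acaca, acetyl-CoA carboxylase, and Arl4c, and they were not called without Ly6C-hi replicate 2 or 3 (Acaca, 1.42 to 1.53) or without replicate 3 (Arl4c, 0.67). Arl4c was also not called with the replicate number as a block (log2 difference 0.78), and without Ly6C-hi replicate 2 or with no filter on low values 1 higher gene was left. Apoe in wild-type Ly6C-hi macrophages was 237, 196 and 244 RPM, above the Rnaset2-/- level (log2 difference -1.81 ± 0.3, adjusted p = 0.00438). Of 18 genes of sterol synthesis and uptake, 6 were higher, none was lower and 12 were not called, with a median of 0.66. Srebf2, the transcription factor of the pathway, measured 49.9, 96.9 and 91.2 RPM in Ly6C-hi macrophages and 20.6, 28.2, 25 and 22.5 RPM in KCs (log2 difference 2.02 ± 0.22, adjusted p = 0.000345). Mvd, mevalonate decarboxylase, was at 35.5, 33.1 and 35.5 RPM against 13, 7.4, 9.52 and 13.4 RPM (log2 difference 2.0 ± 0.26, adjusted p = 0.000759). No library of one group reached the other group for these genes, whereas Hmgcs1, the HMG-CoA synthase, was not called (log2 difference 0.2 ± 0.23, adjusted p = 0.538). The sterol count fell to 3 without Ly6C-hi replicate 2, without replicate 3, or on RPM as deposited, where the median was 0.35. In the last setting and with no filter on low values 1 sterol gene was lower.

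Receptors and bridging proteins for apoptotic cells were lower in part. Of 17 tested, 6 were lower, 1 was higher and 10 were not called, with a median of -0.94. Without the gate gene Timd4, 5 of 16 were lower and the median was -0.74. Without Ly6C-hi replicate 1 the median was -0.36, and with no filter on low values it was -0.54. The higher genes numbered 2 without Ly6C-hi replicate 1, with the replicate number as a block or with DESeq2, 3 in the joint fit and none on RPM as deposited. Mertk, the TAM receptor of resting macrophages, measured 75.1, 18.8 and 29 RPM in Ly6C-hi macrophages and 379.7, 345, 141 and 334 RPM in KCs (log2 difference -2.59 ± 0.53, adjusted p = 0.00621). Axl, the other TAM receptor of KCs, measured 134, 31.8 and 46.7 RPM against 645, 527, 201 and 617 RPM (log2 difference -2.54 ± 0.58, adjusted p = 0.0104), and their ligand Gas6 fell by 2.45 on the log2 scale. Replicate 1 had the highest Mertk and Axl of the Ly6C-hi libraries. In wild-type Ly6C-hi macrophages Mertk was 3.94, 9.6 and 4.74 RPM, below the Rnaset2-/- level (log2 difference 2.13 ± 0.54, adjusted p = 0.0216). Elmo1, an adaptor of engulfment, was the higher gene (1.04), while Lrp1, a large scavenger receptor, overlapped (log2 difference 0.41 ± 0.44, adjusted p = 0.505).

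Complement genes were mostly lower, 7 of 12 tested, with 1 higher, 4 not called and a median of -1.67. C1qb, a chain of C1q, spread widely in Ly6C-hi macrophages, at 1827, 184 and 234 RPM, against 3217, 2868, 1442 and 3600 RPM in KCs. It was not called (log2 difference -2.22 ± 0.78, adjusted p = 0.0543) but was lower without Ly6C-hi replicate 1 (-3.34) and with the replicate number as a block (log2 difference -2.05). C1qc measured 5.6, 1.08 and 0.462 RPM against 34, 39.4, 17.5 and 23 RPM (log2 difference -3.05 ± 0.56, adjusted p = 0.00397). C3, the central component, was the higher gene, at 4159, 1410 and 1421 RPM against 641, 677, 1179 and 418 RPM (log2 difference 1.97 ± 0.48, adjusted p = 0.0141). For both C1q chains and for C3, replicate 1 was the highest Ly6C-hi library.

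Iron and heme genes other than Cd163 and Slc40a1 were mostly not called. Of 19 tested, Cd163 and Slc40a1 included, 6 were lower, 2 higher and 11 not called, with a median of -0.58. The lower count was 10 without Ly6C-hi replicate 1 (median -0.86) and on RPM as deposited (median -0.96, with 1 higher), and the median was -0.32 without Ly6C-hi replicate 2 and -0.18 without replicate 3. Tfr2, transferrin receptor 2, fell by 1.94 on the log2 scale. Hpx and Hamp, the hepatocyte genes for hemopexin and hepcidin, were lower along with the 11 hepatocyte markers. Hpx measured 13.2, 1.62 and 3.77 RPM in Ly6C-hi macrophages and 89.6, 74.9, 200.4 and 97.4 RPM in KCs, with KC replicate 3 the highest. Bach1, a heme-binding repressor, was higher at 52.1, 123 and 139 RPM against 38.4, 46.5, 34.8 and 34.6 RPM (log2 difference 1.7 ± 0.28, adjusted p = 0.00215). Slc11a2, an endosomal iron transporter, was the other higher gene and was not called without Ly6C-hi replicate 2 (log2 difference 0.95), which left Bach1 alone.

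Lysosomal hydrolases and nucleases, the compartment in which RNase T2 acts, were mostly not called. Of 38 tested, 4 were higher, 7 lower and 27 not called, with a median of -0.04. The median was -0.31 without KC replicate 3 and -0.34 without Ly6C-hi replicate 1. Pld4, an exonuclease for single-stranded nucleic acids, was higher at 1042, 1417 and 1487 RPM in Ly6C-hi macrophages and 505, 516, 289 and 533 RPM in KCs (log2 difference 1.93 ± 0.26, adjusted p = 0.000897). Ctsf, a cathepsin, measured 1.77, 2.16 and 4.15 RPM against 61.4, 63.9, 33.7 and 53.5 RPM (log2 difference -3.56 ± 0.31, adjusted p = 0.000113). Ctsl, another cathepsin, was lower (log2 difference -1.14 ± 0.18, adjusted p = 0.00190), whereas the abundant Ctsb overlapped, at 2840, 2857 and 2969 RPM against 5106, 5741, 2476 and 4330 RPM (log2 difference -0.15 ± 0.35, adjusted p = 0.769). Ctse, Psap and Cln3 were the other higher genes. Of these, Ctse was not called without KC replicate 1 or 2 or Ly6C-hi replicate 1 or 2 (log2 difference 1.49 to 2.04) and Psap without KC replicate 1, 2 or 3 or Ly6C-hi replicate 1 or 2 (log2 difference 0.76 to 1.29), while Cln3 was not called without Ly6C-hi replicate 2 (log2 difference 0.56). The counts were 1 higher and 3 lower without Ly6C-hi replicate 2, 2 and 4 without KC replicate 1 or KC replicate 2, 2 higher without Ly6C-hi replicate 1, and 4 lower without KC replicate 4 or Ly6C-hi replicate 3. With the replicate number as a block, 8 genes were higher and 6 lower, and with DESeq2 7 were higher. On RPM as deposited 1 was higher and 13 lower, and with no filter on low values 2 were higher and 4 lower.

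Toll-like receptors and their adaptors were mostly not called. Of 24 genes, 5 were higher, 3 lower and 16 not called, but 3 were higher and 5 lower on RPM as deposited. X-linked genes were left out of the test, so the RNA sensor genes Tlr7, Tlr8 and Tlr13 on that chromosome are not among the 24. Irak3, an inhibitor of signalling, measured 190.3, 277 and 192 RPM in Ly6C-hi macrophages and 45.7, 50.2, 73.9 and 60 RPM in KCs (log2 difference 2.31 ± 0.22, adjusted p = 0.000157). Myd88, the common adaptor, measured 219, 209.8 and 222 RPM against 91.6, 120.1, 90.9 and 130.3 RPM (log2 difference 1.41 ± 0.2, adjusted p = 0.00111). Ticam2 (1.75), Ticam1 and Irak2 were the other higher genes, of which Ticam1 was not called without KC replicate 1 (log2 difference 0.93). On RPM as deposited neither Ticam1 nor Irak2 was called. Tlr3, the receptor for double-stranded RNA, was lower at 17.6, 15.7 and 10.9 RPM against 43.8, 35.4, 72.2 and 49.3 RPM (log2 difference -1.3 ± 0.3, adjusted p = 0.0102). Tlr12 and Ly86 were also lower, Tlr12 not called without Ly6C-hi replicate 2 (log2 difference -2.25) and Ly86 without KC replicate 1, 2 or 4 or Ly6C-hi replicate 2 or 3 (log2 difference -1.14 to -0.89), which left 1 lower gene without Ly6C-hi replicate 2. Unc93b1, the chaperone that carries endosomal receptors, overlapped at 2151, 1323 and 1104 RPM against 1691, 1225, 728 and 1392 RPM (log2 difference 0.68 ± 0.39, adjusted p = 0.202).

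Cytokine and chemokine genes moved in both directions, 12 higher, 7 lower and 15 not called of 34. Lower genes rose to 11 without Ly6C-hi replicate 1. Between genotypes, 5 of 33 tested genes of the list were higher and 18 lower in Rnaset2-/- than in wild-type Ly6C-hi macrophages. Ccl9, a monocyte chemokine, measured 469, 559 and 748 RPM in Ly6C-hi macrophages and 87.9, 51.7, 67.5 and 104 RPM in KCs (log2 difference 3.33 ± 0.26, adjusted p = 6.86e-05). Ccl5 measured 2870, 515 and 432 RPM against 141, 83.4, 351 and 175 RPM (log2 difference 2.78 ± 0.71, adjusted p = 0.0169). Il12b, the shared subunit of IL-12 and IL-23, measured 23.5, 39.5 and 54.1 RPM against 11.7, 3.74, 4.45 and 10.9 RPM (log2 difference 2.62 ± 0.41, adjusted p = 0.00187). It was 0.154, 1.0 and 0.895 RPM in wild-type Ly6C-hi macrophages (log2 difference 4.32 ± 0.34, adjusted p = 0.000268 between genotypes). Tnf was low in both groups, at 11.4, 3.4 and 3.0 RPM against 1.64, 1.58, 1.05 and 0.923 RPM (log2 difference 1.69 ± 0.46, adjusted p = 0.0218), and was not called without KC replicate 4 (log2 difference 1.62). In wild-type Ly6C-hi macrophages Tnf was 12.9, 31.0 and 20.1 RPM, above the Rnaset2-/- level (log2 difference -2.08 ± 0.51, adjusted p = 0.0193 between genotypes). Ifnb1, interferon β, was detected at 2.99, 2.7 and 5.69 RPM against 0.819, 0, 0.175 and 0 RPM (log2 difference 2.14 ± 0.33, adjusted p = 0.00177). Wild-type Ly6C-hi macrophages held 3.78, 5.17 and 6.98 RPM of Ifnb1, which was not called between genotypes (log2 difference -0.68 ± 0.31, adjusted p = 0.134). Il6 at 3.22, 0.85 and 8.46 RPM against 3.77, 2.58, 2.44 and 2.77 RPM (log2 difference 0.41 ± 0.49, adjusted p = 0.554) and Il10 at 3.22, 7.03 and 9.62 RPM against 9.58, 7.65, 6.99 and 13.6 RPM (log2 difference -0.18 ± 0.35, adjusted p = 0.725) overlapped. Both were higher in wild-type Ly6C-hi macrophages, at 16.6, 22.6 and 29.6 RPM for Il6 (log2 difference -2.74 ± 0.52, adjusted p = 0.00775 between genotypes) and 9.11, 32.2 and 30.2 RPM for Il10 (log2 difference -1.91 ± 0.49, adjusted p = 0.0230). Cxcl13, a B cell chemoattractant, was lower at 10.6, 1.54 and 4.69 RPM against 125, 159, 97.1 and 135 RPM (log2 difference -4.18 ± 0.49, adjusted p = 0.000473), and Ccl17, a T cell chemoattractant, fell by 2.22 on the log2 scale.

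Interferon-stimulated genes were mostly not called, 9 lower, 2 higher and 19 not called of 30, with a median of -0.29. Without the gate gene Bst2, 8 of 29 were lower. The median of the list was -0.44 without KC replicate 3 and -0.45 without Ly6C-hi replicate 1. On RPM as deposited 14 were lower and 1 higher, and 1 was higher with DESeq2 or with no filter on low values. Ddx60, an antiviral helicase, measured 7.91, 8.8 and 8.08 RPM in Ly6C-hi macrophages and 58.2, 56.5, 21.9 and 59.5 RPM in KCs (log2 difference -1.96 ± 0.36, adjusted p = 0.00409). Oas2, a 2′-5′ oligoadenylate synthetase, measured 135, 203 and 194 RPM against 518, 455, 405 and 732 RPM (log2 difference -1.16 ± 0.24, adjusted p = 0.00702), and Oasl1 fell by 1.24 on the log2 scale. Rsad2 (log2 difference -0.33 ± 0.23, adjusted p = 0.286), Ifih1 (log2 difference 0.26 ± 0.19, adjusted p = 0.32), Mx1 (log2 difference 0.11 ± 0.24, adjusted p = 0.749) and Oas1a (log2 difference 0.09 ± 0.32, adjusted p = 0.851) were not called. Zbp1, a sensor of Z-form nucleic acids, was higher at 245, 191 and 142 RPM against 86.6, 86.9, 74.2 and 94.9 RPM (log2 difference 1.52 ± 0.25, adjusted p = 0.00245). Gbp2, a guanylate-binding protein induced by interferon γ, measured 1059, 138 and 134 RPM against 94.5, 124, 33.2 and 47.8 RPM (log2 difference 2.42 ± 0.78, adjusted p = 0.0407) and was not called without KC replicate 1, 3 or 4 (log2 difference 2.07 to 2.58), which left Zbp1 alone in each case. Cxcl9, an interferon γ-induced chemokine, shared the high replicate 1, at 5576, 583 and 642 RPM against 478, 703, 594 and 380.1 RPM, and was not called (log2 difference 1.68 ± 0.75, adjusted p = 0.113).

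**Figure D4:**
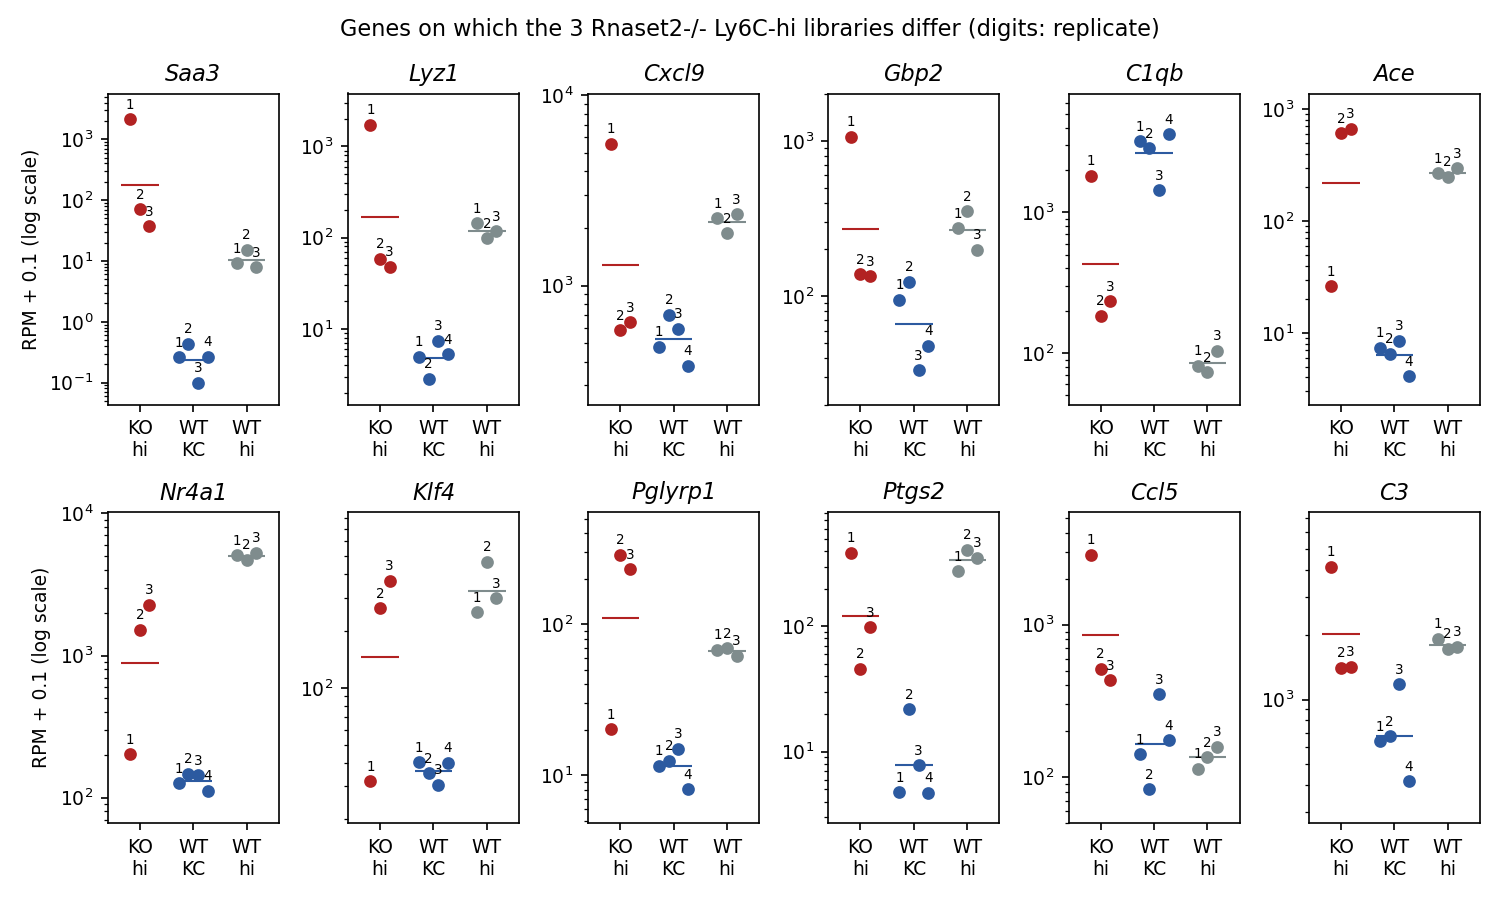
RPM + 0.1 (log scale) of 12 genes in single libraries of Rnaset2-/- Ly6C-hi macrophages (KO hi), wild-type KCs (WT KC) and wild-type Ly6C-hi macrophages (WT hi), numbered by replicate, with bars at geometric means. Replicate 1 of the Rnaset2-/- Ly6C-hi macrophages was highest for Saa3, Lyz1, Cxcl9, Gbp2 and C1qb and lowest for Ace, Nr4a1, Klf4 and Pglyrp1.

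Many immediate early genes were higher in Ly6C-hi macrophages, 19 of 34 tested, with 2 lower, 13 not called and a median of 1.21. The lower count was 4 on RPM as deposited, in the joint fit and with DESeq2. Nr4a1 (GRCm38 chromosome 15, 101254269 to 101274795), the nuclear receptor on which Ly6C-low monocytes depend, measured 203, 1516 and 2281 RPM against 126, 148, 144 and 112 RPM (log2 difference 3.14 ± 0.63, adjusted p = 0.00586). In wild-type Ly6C-hi macrophages it was 5078, 4717 and 5277 RPM, above the Rnaset2-/- level (log2 difference -2.81 ± 0.74, adjusted p = 0.0248). Ptgs2, the inducible cyclooxygenase, measured 386, 46 and 98.2 RPM against 4.67, 21.6, 7.68 and 4.61 RPM (log2 difference 4.15 ± 0.74, adjusted p = 0.00341). Klf4, a factor of monocyte differentiation, measured 31.9, 264 and 371 RPM against 40.1, 35.2, 30.6 and 39.9 RPM (log2 difference 2.38 ± 0.65, adjusted p = 0.0214). The groups overlapped through replicate 1 as deposited, but not after scaling. Klf4 was not called without KC replicate 3 or Ly6C-hi replicate 2 or 3 (log2 difference 1.79 to 2.28). Over the list, no gene was higher and 27 of 34 were lower in Rnaset2-/- than in wild-type Ly6C-hi macrophages. The lower genes against KCs were Cyr61, a secreted matrix protein that was not called without Ly6C-hi replicate 2 (log2 difference -2.38), and Myc (log2 difference -1.0 ± 0.21, adjusted p = 0.00779).

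Adhesion molecules and chemokine receptors were mostly higher, 14 of 25 tested, with 2 lower, 9 not called and a median of 0.98, and 13 of 24 were higher without the gate gene Itgam. The count of higher genes fell to 9 without Ly6C-hi replicate 3 or with no filter on low values and to 8 on RPM as deposited, where the median was 0.59. That of lower genes was 4 without Ly6C-hi replicate 1, in the joint fit and on RPM as deposited. Itgb2, the β2 integrin chain, measured 1566, 2038 and 1982 RPM in Ly6C-hi macrophages and 491, 462, 359 and 453 RPM in KCs (log2 difference 2.47 ± 0.2, adjusted p = 7.83e-05). Ccr3 and Itga9 were the lower genes, and Itga9 was not called without Ly6C-hi replicate 2 (log2 difference -1.21). Ccr3, an eosinophil chemokine receptor, measured 0.0770, 0.309 and 0.385 RPM against 12.3, 20.4, 2.01 and 11.3 RPM (log2 difference -2.84 ± 0.59, adjusted p = 0.00686).

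Receptors for growth factors and cytokines were higher in 8 of 17 cases and lower in 2, with a median of 0.89 that was 0.5 on RPM as deposited. Tnfrsf1b, TNF receptor 2, measured 1484, 2655 and 2370 RPM in Ly6C-hi macrophages and 391, 345, 231 and 490.1 RPM in KCs (log2 difference 2.98 ± 0.29, adjusted p = 0.000208). Csf2rb, the signalling chain of the GM-CSF receptor, measured 459, 243 and 309 RPM against 91.2, 81.7, 28.8 and 72.5 RPM (log2 difference 2.74 ± 0.42, adjusted p = 0.00171). It was 102, 92 and 116 RPM in wild-type Ly6C-hi macrophages (log2 difference 1.33 ± 0.29, adjusted p = 0.0126 between genotypes). Epor, the erythropoietin receptor, was lower at 2.07, 4.48 and 6.08 RPM against 15.6, 20.1, 14.3 and 21.2 RPM (log2 difference -1.58 ± 0.31, adjusted p = 0.00497), and the decoy receptor gene Il1r2 was not called without KC replicate 1, 2 or 3 or Ly6C-hi replicate 2 or 3 (log2 difference -1.6 to -1.3). Csf1r, the receptor on which monocytes and KCs both depend, overlapped at 1140, 1294 and 1363 RPM against 2104, 1967, 795 and 2178 RPM (log2 difference 0.02 ± 0.37, adjusted p = 0.969).

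Fc receptors split, 4 higher, 3 lower and 2 not called of 9 tested, and the same counts held in every analysis that left out 1 library. Fcgr4, a low-affinity receptor for IgG named in the gates of the methods, was among the higher genes, and 3 of 8 were higher without it. Fcgr2b, the inhibitory receptor, measured 65.4, 40.8 and 37.7 RPM against 9.83, 13.3, 13.9 and 7.63 RPM (log2 difference 2.38 ± 0.31, adjusted p = 0.000746). Fcrl5, an Fc receptor-like protein, measured 11.6, 58.4 and 30.5 RPM against 2.29, 1.83, 3.75 and 1.43 RPM (log2 difference 3.48 ± 0.46, adjusted p = 0.000761). Fcrl5 was 0.232, 0 and 0 RPM in wild-type Ly6C-hi macrophages (log2 difference 4.57 ± 0.48, adjusted p = 0.000822 between genotypes). In Rnaset2-/- liver Ly6C-low macrophages it reached 255, 818 and 450 RPM. The B cell genes Fcer2a and Fcrla fell by 1.88 and 1.38 on the log2 scale against KCs. Fcgrt, the neonatal Fc receptor, was lower at 171, 312 and 386 RPM against 1165, 1262, 1224 and 1381 RPM (log2 difference -1.79 ± 0.23, adjusted p = 0.000734). Fcer1g, the common γ chain, was also higher (1.74).

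MHC class II genes were mostly not called, 10 of 14, with 1 higher and 3 lower. Cd74, the invariant chain, measured 30380, 7986 and 8760 RPM in Ly6C-hi macrophages and 14590, 10840, 12600 and 17360 RPM in KCs, with replicate 1 the highest of all 7 (log2 difference 0.31 ± 0.59, adjusted p = 0.711). Cd83, a maturation marker, measured 4.14, 6.1 and 5.62 RPM against 28.8, 18, 21.7 and 18 RPM (log2 difference -1.48 ± 0.25, adjusted p = 0.00239), far below the 324, 301 and 659 RPM of wild-type Ly6C-hi macrophages (log2 difference -6.3 ± 0.32, adjusted p = 0.000102 between genotypes). The costimulatory genes ran in opposite directions. Cd86 was lower (-1.56) and not called without Ly6C-hi replicate 2 (log2 difference -1.46), whereas Cd40 was higher (1.68) and not called without KC replicate 3 (log2 difference 1.53). H2-Ob, a class II modulator, was not called without KC replicate 1, 3 or 4 or Ly6C-hi replicate 1 or 2 or 3 (log2 difference -1.0 to -0.63) or with the replicate number as a block (log2 difference -0.87). The counts were 1 lower gene without Ly6C-hi replicate 2, no higher gene without KC replicate 3 and 2 higher genes with DESeq2.

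Glycolysis genes were mostly higher, 11 of 15 tested, with none lower, 4 not called and a median of 1.37. Slc16a3 (GRCm38 chromosome 11, 120948480 to 120960868), the lactate exporter MCT4, measured 220.5, 201 and 155 RPM in Ly6C-hi macrophages and 16.4, 19.1, 6.9 and 7.13 RPM in KCs (log2 difference 4.34 ± 0.38, adjusted p = 0.000119). Slc2a1, the glucose transporter GLUT1, measured 191, 57.1 and 81.5 RPM against 25.1, 25.4, 23.1 and 19.9 RPM (log2 difference 2.39 ± 0.4, adjusted p = 0.00251). Gpi1, glucose-6-phosphate isomerase, measured 779, 511 and 466 RPM against 190.5, 177, 139.7 and 120 RPM (log2 difference 2.27 ± 0.28, adjusted p = 0.000552). The groups did not overlap for these 3 genes, and replicate 1 was the highest Ly6C-hi library for 13 of the 15 genes. Without replicate 1, 11 genes were higher and 1 was lower. Slc16a3 was 66.5, 76.6 and 60.3 RPM in wild-type Ly6C-hi macrophages, below the Rnaset2-/- level (log2 difference 1.17 ± 0.22, adjusted p = 0.00733). Aldoa, aldolase A, was not called (log2 difference 1.11 ± 0.41, adjusted p = 0.0668) but was called without Ly6C-hi replicate 3 (log2 difference 1.46).

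Most cell cycle genes were not called. Of 37 S phase genes, 1 was higher and 6 were lower, with a median of -0.17, and of 49 G2/M genes, 3 were higher and 2 lower, with a median of -0.07. Mki67, the proliferation marker Ki-67, overlapped at 34, 19.8 and 14.2 RPM in Ly6C-hi macrophages and 25.1, 49.2, 27 and 29.9 RPM in KCs (log2 difference -0.17 ± 0.37, adjusted p = 0.755). Cdca7 (log2 difference -1.83 ± 0.23, adjusted p = 0.000706) and Tipin (log2 difference -1.52 ± 0.25, adjusted p = 0.00232), which act in chromatin remodelling and replication fork protection, were among the lower S phase genes. Tmpo, a nuclear lamina protein, measured 482, 694 and 734 RPM against 204, 233, 163 and 84.1 RPM (log2 difference 2.36 ± 0.31, adjusted p = 0.000812), with Hn1 and Lbr the other higher G2/M genes, and Bub1 and Kif23 the lower ones. Slbp, a histone mRNA-binding protein, was the higher S phase gene (1.15). The higher S phase count was 2 without KC replicate 4 and with the replicate number as a block. The lower S phase count was 3 without Ly6C-hi replicate 2, and the lower G2/M count was 4 without KC replicate 3. Without KC replicate 3 the medians were -0.26 for S phase genes and -0.04 for G2/M genes. On RPM as deposited the lower counts were 12 and 13. Between genotypes, 24 of 49 G2/M genes and 9 of 36 S phase genes were higher in Rnaset2-/- Ly6C-hi macrophages, and 1 of each list was lower.

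**Figure D5:**
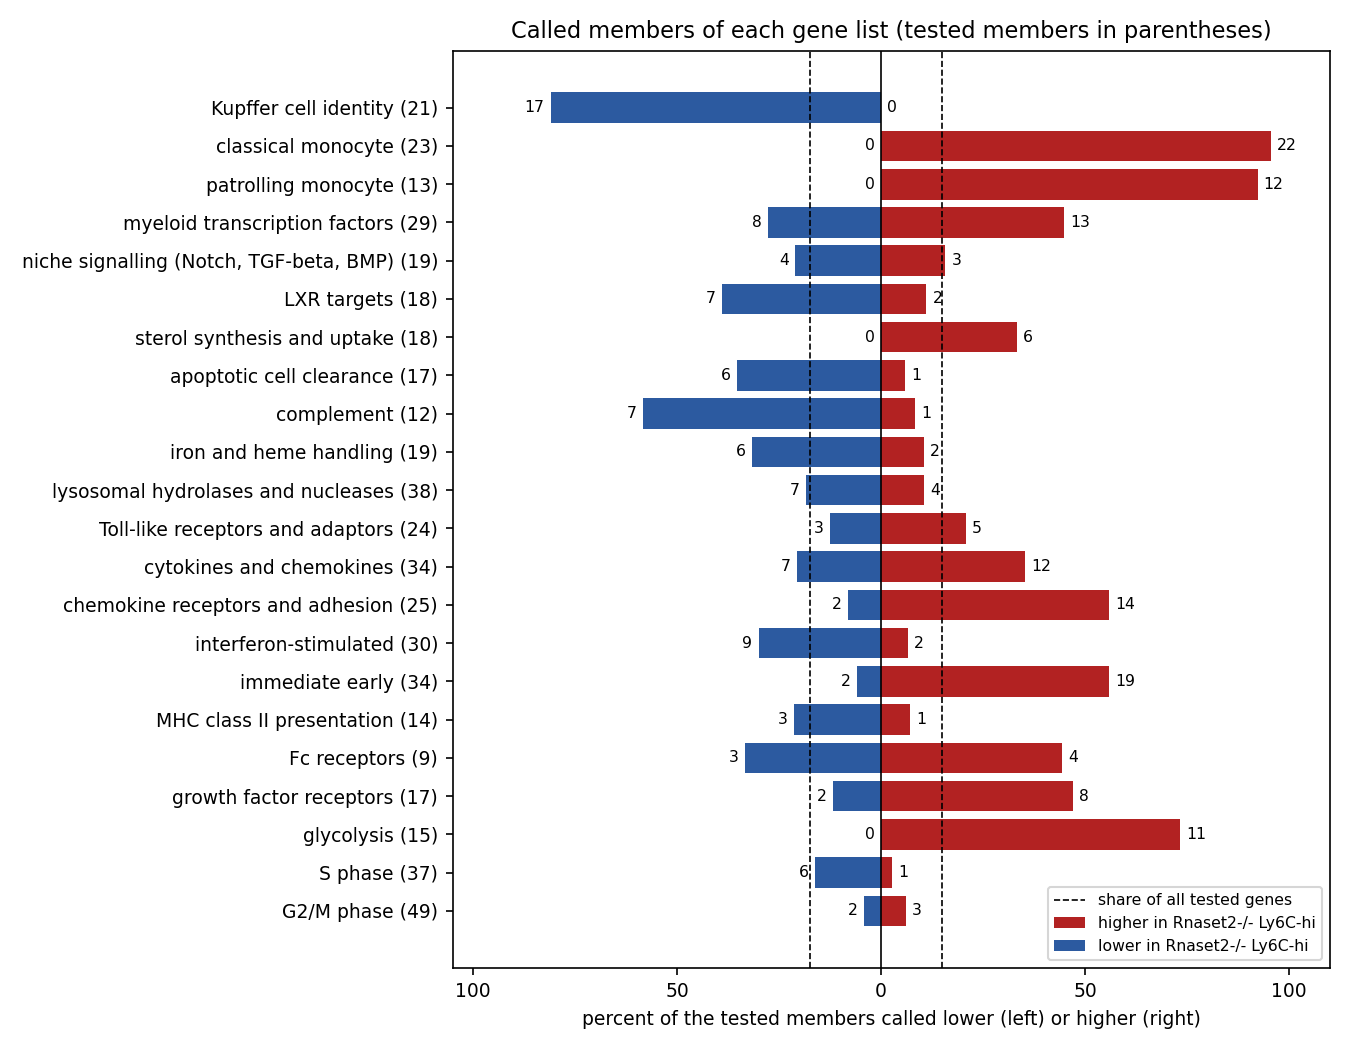
Percent of the tested members of each gene list called lower (blue, left) or higher (red, right) in Rnaset2-/- Ly6C-hi macrophages than in wild-type KCs, with counts at the bar ends and dashed lines at the shares of all tested genes (17.3% and 14.9%). Genes of the sorting gates are included. Classical monocyte (22 of 23) and glycolysis genes (11 of 15) lie on the right, and KC identity genes (17 of 21) on the left.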

How the data were processed

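RNA of sorted macrophages was amplified with an Ion AmpliSeq mouse transcriptome panel and sequenced on an Ion Proton. The authors deposited 1 table of RPM, the reads of each gene scaled to a common library total, for 23930 genes in 29 libraries, and the submitters' notes name the mm10 build. All values came out as whole reads within 0.1 once multiplied by the depth. The panel's amplicon design limits comparison of levels between genes, and at 11451876 to 13027220 reads per library counting error matters mainly for genes near the floor of 3 reads.

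Groups followed the labels. RPM was divided by relative log expression (RLE) size factors, 1 was added, and log2 values were fitted with limma (version 3.58.1, trended empirical Bayes) on the 7 libraries, with Benjamini-Hochberg adjustment over 11816 genes. X- and Y-linked genes and genes without a matched position were left out. Rnaset2-/- and wild-type Ly6C-hi libraries were fitted alike. The script was tested on simulated reads with the same dispersion for all genes and libraries, which leaves out the wider spread of Ly6C-hi replicate 1. It recovered 64 of 100 genes changed 2-fold and 100 of 100 changed 4-fold, and called 9 of 12097 unchanged genes. A gene that was not called can therefore still differ. Alternatives were another added value, no filter, RPM as deposited, all 29 libraries, a replicate block, edgeR (4.0.16) and DESeq2 (1.42.0) on recovered reads, all genes, each library left out and, added after seeing the data, the lists without genes of the sorting gates. Deviations of same-numbered libraries of the 2 groups correlated weakly (Pearson r 0.105, 0.102 and 0.219 across genes), while libraries of different numbers ran from -0.23 to 0.124. Ly6C-hi replicate 1 stood at 0.093 with KC replicate 2 and 0.092 with KC replicate 4. Ly6C-hi replicate 2 was closer to KC replicate 3 (0.124) than to its own number. No stated design pairs the libraries, and these values do not settle a pairing. The block fit used replicates 1 to 3 only.

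The members, gene lists and named genes were chosen with earlier results of these data known. Named genes were the 10 largest separated differences in each direction, up to 3 called members per list and direction, the most abundant uncalled member, and genes the study names. Other list members were named after their values were seen. Close paralogs of the Lyz, Ly6, Fcgr, Ccl3 and Ccl4, and Hspa1 families are uncertain, because amplicons may share reads. No DNA sequence is shown. The values of some named genes are not reported here.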

Additional observations from a re-analysis of the deposited data

Results flagged for a closer look

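In 13 of 148 named genes, 1 of the 4 KC libraries lay apart from the others, its gap to the nearest library exceeding Dixon's 95% critical value for 4 samples as a share of the range. Chance flags about 1 in 20 groups. The library was KC replicate 3 in 12 of the 13 genes, lowest in 7 and highest in 5.

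Replicate 3 was lowest for Cd5l (2098 RPM), Clec1b (296.8 RPM), Timd4 (166 RPM), Csf1r (794.8 RPM), Lrp1 (390.2 RPM), Pld4 (289 RPM) and Ddx60 (21.92 RPM). It was highest for Alb (3408 RPM), Fcer2a (221.9 RPM), Scd1 (417 RPM), Notch1 (80.34 RPM) and Ip6k3 (0.961 RPM). For Slbp the library apart was KC replicate 4 (40.09 RPM). Hepatocyte and sinusoidal endothelial markers were also highest in replicate 3, and their part in these values was not tested.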

How the results depend on the processing

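Against 1765 higher and 2043 lower genes, RPM as deposited gave 868 and 3323, the joint fit of all 29 libraries gave 3204 lower genes, and 1088 genes were higher at more than 2-fold. Leaving out 1 library gave 1199 to 1918 higher and 1271 to 1907 lower genes. With the replicate number as a block the counts were 1563 and 1972, against 1452 and 1652 in the same 6 libraries without it. Between genotypes, RPM as deposited gave 2589 higher and 863 lower genes, and leaving out 1 library gave 852 to 2159 and 922 to 1954. The cause of these shifts was not tested. Of 124 named genes called, 97 kept their call under every alternative that gave them an adjusted p and none changed sign. DESeq2 gave an adjusted p for 120 of the 124. The calls of Acaca, Ctse, Cx3cr1, Gbp2, Klf4 and Psap were lost both on RPM as deposited and with no filter on low values, those of Arl4c, Cln3, Elmo1, Irak2, Slc11a2, Smad3 and Ticam1 on RPM as deposited, and those of Adgre1, Bst2, H2-Ob, Il1r2, Ly86 and Lyz2 with no filter. Cln3 was also lost in the joint fit, and Ctse and Tlr12 with edgeR. Besides the genes named with the block in the report, it changed no other call of a named gene. Of 337 recomputed list medians, 301 moved by less than 1 SD of the libraries and 36 by more.

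Sign changes occurred in named genes that were not called. On RPM as deposited the log2 differences were -0.085 for Cd74, -0.37 for Csf1r, -0.19 for Hmgcs1, -0.14 for Ifih1, -0.28 for Mx1, -0.31 for Oas1a and -0.29 for S100a10. In the joint fit of all 29 libraries they were -0.10 for Csf1r, -0.0074 for Mx1, -0.034 for Oas1a and -0.017 for S100a10. Csf1r was -0.092 with edgeR and -0.10 with DESeq2, and Il10 was 0.011 with the replicate block. With 1 library left out, the values ran from -1.58 to 0.12 for Adrb1, -0.38 to 0.69 for Cd74, -0.35 to 0.18 for Csf1r, -0.41 to 0.15 for Il10, -0.14 to 1.05 for Il6, -0.047 to 1.77 for Klrb1c, -0.044 to 0.58 for Lrp1, -0.57 to 0.18 for Mki67, -0.053 to 0.26 for Mx1, -0.21 to 0.25 for Oas1a and -0.044 to 0.31 for S100a10. Values below the floor of 3 reads, 0.230 to 0.262 RPM, cannot be ordered.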
